A study of Mus musculus with 6 samples.

Results

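The microRNAs (miRNAs) mmu-miR-199a, mmu-miR-199b and mmu-miR-214 were followed in small RNA libraries of N2A (Neuro2A) cells, a mouse neuroblastoma line. They were chosen by name, as all arms and sequence variants listed under these names. This gave 5 of 1080 listed entries. A miR-199b-5p variant had the same values as miR-199a-5p in every library, so 4 entries remained of 1046 once identical entries were counted once. There were 3 libraries of cells transfected with a control siRNA (si-NC) and 3 of cells transfected with an siRNA to circCpsf6, a circular RNA (si-circCpsf6). Both siRNAs were used at 100 nM in the same line and medium, and the labels give no other difference between the groups. The level of circCpsf6 was not analysed here. Nothing in the labels says that replicates were separate cultures, so each p-value reflects the spread among the libraries alone, and that spread may be technical.

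miR-199a and miR-214 are best known from mesenchymal cells and the developing skeleton, where one copy of miR-199a and the only copy of miR-214 are cut from the long noncoding RNA Dnm3os. Dnm3os runs antisense to the dynamin gene Dnm3 and is switched on by the transcription factor Twist1. A mature miRNA guides repression through its seed, the bases near its 5′ end that pair with target messages. Known targets include Mtor and Met for miR-199-3p, and Ezh2 for miR-214-3p.

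The mature sequences are shown because they decide what the 4 entries can tell apart. They are from RefSeq (GRCm38.p6), where 5 of the 6 arms had an entry. The miR-199b-5p arm was read from the RefSeq Mir199b hairpin by its match to miR-199a-5p. Capitals mark the seed, bases 2 to 8.

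miR-199a-5p: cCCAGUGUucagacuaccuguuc

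miR-199b-5p: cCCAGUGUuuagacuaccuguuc

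miR-199a-3p: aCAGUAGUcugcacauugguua

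miR-199b-3p: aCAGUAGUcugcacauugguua

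miR-214-5p: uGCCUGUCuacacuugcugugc

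miR-214-3p: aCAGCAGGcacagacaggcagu

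The 3p arms of miR-199a and miR-199b were identical, so the entry named as a miR-199b-3p variant cannot be assigned to either gene and is called miR-199-3p here. Its name carries a suffix read here as 1 base missing at the 3′ end, which gives aCAGUAGUcugcacauugguu. The 5p arms differed by 1 substitution, U10C, counted from the 5′ end with the miR-199b base first. The listed miR-199b-5p variant carries in its name that same substitution, and applying it gave the miR-199a-5p sequence exactly. These 2 entries were therefore 1 sequence listed under 2 names, and no entry was listed under the unchanged miR-199b-5p sequence. The seeds of miR-199-3p and miR-214-3p shared 5 of 7 positions but were different seeds. Among the other mouse miRNAs in RefSeq, only miR-761 (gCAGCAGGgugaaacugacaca) had the seed of a listed arm, that of miR-214-3p, and no entry was listed under its name.

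The hairpins of Dnm3os carry both arms of each miRNA, shown here in capitals for Mir199a-2 and then Mir214.

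Mir199a-2: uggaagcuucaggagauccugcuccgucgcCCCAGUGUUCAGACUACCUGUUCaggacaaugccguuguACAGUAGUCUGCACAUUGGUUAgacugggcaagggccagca

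Mir214: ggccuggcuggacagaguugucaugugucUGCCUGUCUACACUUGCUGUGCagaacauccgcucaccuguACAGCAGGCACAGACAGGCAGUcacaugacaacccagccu

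On GRCm38 the Mir199a-2 hairpin lies at chr1:162217814-162217923 and the Mir214 hairpin at chr1:162223368-162223477, both on the plus strand, with 5444 bases between them. By GENCODE M21, Mir214 lies in an exon of both Dnm3os transcripts that span it. Mir199a-2 lies in an exon of 2 of the 3 that span it. Both hairpins also lie in introns of Dnm3, on its opposite strand. The other copy of miR-199a, Mir199a-1, lies at chr9:21496495-21496564 in introns of Dnm2, and Mir199b lies at chr2:32318460-32318569 in introns of Dnm1, each on the strand opposite to its dynamin gene. The mature miR-199a arms are the same from both copies. The miR-199 entries can therefore hold RNA from outside Dnm3os, and the miR-214 entries come from a single known hairpin.

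**Figure D1:**
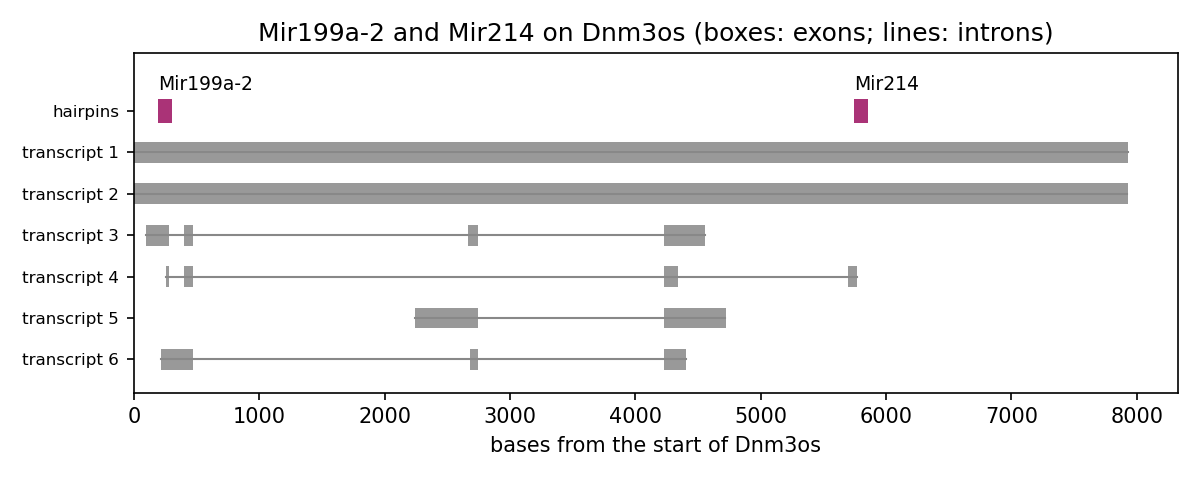
Position of the Mir199a-2 and Mir214 hairpins (magenta) along the 6 annotated Dnm3os transcripts (grey boxes are exons, lines introns), in bases from the start of Dnm3os. Mir199a-2 starts 191 bases and Mir214 5745 bases from the start, and the 2 unspliced transcripts hold both hairpins.

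Values are the authors' normalized read numbers, whose read depth is unknown. Over the 1046 merged entries they summed to between 2516481 and 3219618 per library, and between 717 and 849 entries had a value of 1 or more except in si-NC replicate 3, where 558 did. That library stood apart, so the main results are also given without it. The cell type check used lists of marker miRNAs. The neuronal and neuroendocrine list had entries for 11 of 11 names and summed to 204409 to 367499 for si-NC against 317987 to 509059 for si-circCpsf6, led by miR-7a-5p. Its part in the results was not tested. The haematopoietic list had entries for 5 of 9 names and summed to 81 to 167 and 69 to 126. For miR-142, miR-155 and miR-223 no mouse-named entry was listed. The muscle list had entries for 4 of 8 names and summed to 493 to 670 and 476 to 714, mostly miR-499-5p. miR-122, of liver, was listed at 5 in si-NC replicate 2 and at 0 elsewhere. The epithelial list summed to 1019 to 1577 and 1117 to 1297, mostly miR-203-3p, and its other entries were low and mostly lower in si-circCpsf6. Of its 7 entries tested 5 were lower, 2 were higher and 0 passed the test across all entries described below. Of the 7, 3 had an unadjusted p under 0.05 in that test, against 57 (6.22%) of all 916 entries. The median log2 change was -2.17, against 0.086 over those 916 entries. Without si-NC replicate 3 it was -2.19, against -0.041. The 3 with an unadjusted p under 0.05 were miR-200a-3p, miR-200c-3p and miR-429-3p. miR-200a-3p stood at 69, 141 and 58 for si-NC against 25, 9 and 0 for si-circCpsf6. miR-200c-3p stood at 30, 87 and 39 against 10, 16 and 7. miR-429-3p stood at 19, 23 and 27 against 6, 0 and 0. miR-200b-3p, at 74, 169 and 0 against 13, 9 and 0, was lower with overlap of the groups. So was miR-141-3p, at 5, 11 and 27 against 8, 0 and 0. The 2 higher entries were miR-203-3p and miR-205-5p. The part of this list in the miR-199 and miR-214 values was not tested.

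All 4 entries of miR-199 and miR-214 had higher means in si-circCpsf6 than in si-NC, and the miR-214 arms showed the larger ratios. Mean normalized reads of miR-214-5p were 3.26 times and of miR-214-3p 2.32 times those in si-NC, against 1.62 times for miR-199a-5p and 1.49 times for miR-199-3p. None of the 4 passed the test across all entries. The test was limma, a linear model across all entries tested, on log2(value + 1) with Benjamini-Hochberg adjustment. Of 916 entries tested 0 passed (0%), and 57 (6.22%) had an unadjusted p under 0.05. In bulk libraries, more cells with a miRNA and more of it per cell cannot be told apart.

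miR-214-3p, the dominant arm of miR-214, was listed at 651, 797 and 201 normalized reads in si-NC replicates 1, 2 and 3 and at 1131, 1482 and 1216 in si-circCpsf6 replicates 1, 2 and 3. The groups did not overlap, and si-NC replicate 3 was the lowest library by far. The means were 550 ± 311 and 1276 ± 183 (SD, n = 3, here and below). The log2 change was 1.43 (SE 0.51, limma adjusted p = 0.553, unadjusted p = 0.0219), the 35th smallest p of 916. Leaving out si-NC replicate 3 brought the log2 change to 0.81 (SE 0.19, adjusted p = 0.125) and the ratio of means to 1.76.

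miR-214-5p, the minor arm from the same hairpin, was listed at 34, 38 and 27 across si-NC libraries against 102, 88 and 133 with si-circCpsf6. The lowest si-circCpsf6 library was far above the highest si-NC library, and here si-NC replicate 3 lay close to the other si-NC libraries. The means were 33 ± 5.57 and 108 ± 23.0, a log2 change of 1.67 (SE 0.52, limma adjusted p = 0.434, unadjusted p = 0.0119). It had the 25th smallest p of 916. This was the entry least moved by si-NC replicate 3, with a log2 change of 1.54 (SE 0.32, adjusted p = 0.0989) and a ratio of means of 2.99 without it. Its values are the lowest of the 4, and their read depth is unknown.

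miR-199-3p, the sequence shared by miR-199a and miR-199b, was the most abundant of the 4 and had the 78th highest mean of 1046. It was listed at 5328, 5318 and 3088 across si-NC libraries against 5655, 7554 and 7204 with si-circCpsf6. The groups did not overlap, although si-circCpsf6 replicate 1 lay just above si-NC replicates 1 and 2. The means were 4578 ± 1290 and 6804 ± 1011, a log2 change of 0.60 (SE 0.30, limma adjusted p = 0.735). Without si-NC replicate 3 it was 0.34 (SE 0.17, adjusted p = 0.437), with a ratio of means of 1.28.

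miR-199a-5p, the other arm, was listed at 3319, 4652 and 1928 across si-NC libraries against 4278, 6695 and 5028 with si-circCpsf6. The groups overlapped here, since si-NC replicate 2 lay above si-circCpsf6 replicate 1. The means were 3300 ± 1362 and 5334 ± 1237, a log2 change of 0.76 (SE 0.36, limma adjusted p = 0.735). Leaving out si-NC replicate 3 gave 0.42 (SE 0.27, adjusted p = 0.457) and leaving out si-NC replicate 2 gave 1.05. In the authors' deposited table the log2 ratios were 1.70 for miR-214-5p, 1.22 for miR-214-3p, 0.57 for miR-199-3p and 0.69 for miR-199a-5p. The unadjusted p-values of the authors' deposited table were 0.0247, 0.0353, 0.0821 and 0.129 in that order.

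**Figure D2:**
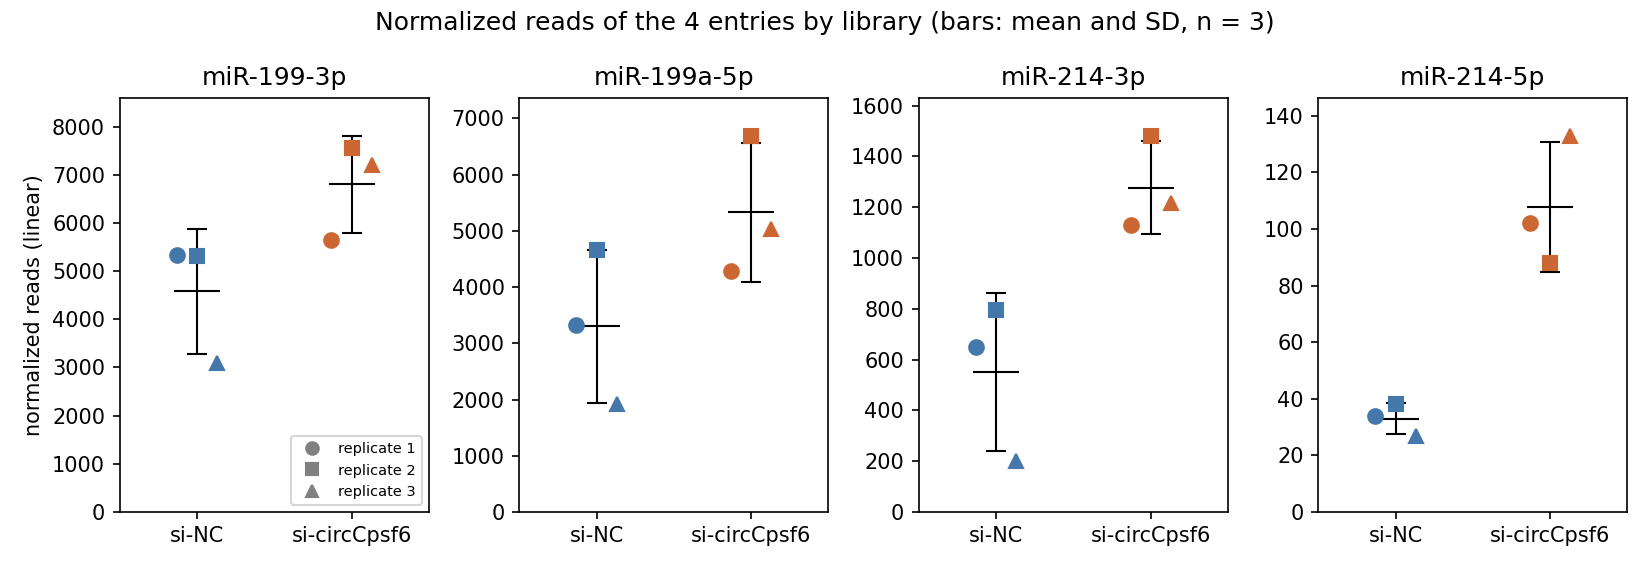
Normalized reads (linear axes from 0, a scale for each panel) of the 4 entries in the 3 si-NC (blue) and 3 si-circCpsf6 (orange) libraries, with mean and SD. The groups overlap for miR-199a-5p only, and si-NC replicate 3 (blue triangle) is the lowest library in each panel.

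For 3 of the 4 entries, miR-199-3p and both arms of miR-214, every si-circCpsf6 library lay above every si-NC library. Among all 916 entries 62 (6.77%) did so. The same 3 entries did so without si-NC replicate 3, against 12.8% of all entries. Of the 4 entries 2, the miR-214 arms, had an unadjusted p under 0.05 with the higher values in si-circCpsf6, against 30 of 916 entries (3.28%). The 4 entries share hairpins or a transcript and are not independent observations. Their median log2 change was 1.09, and that of all 916 entries 0.086. Without si-NC replicate 3 these medians were 0.62 and -0.041. A higher log2 change than theirs was seen in 8.62% of entries for miR-214-5p, 12.1% for miR-214-3p, 24.8% for miR-199a-5p and 28.8% for miR-199-3p. Without si-NC replicate 3 these shares were 7.86%, 18.6%, 29.7% and 32.4%.

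**Figure D3:**
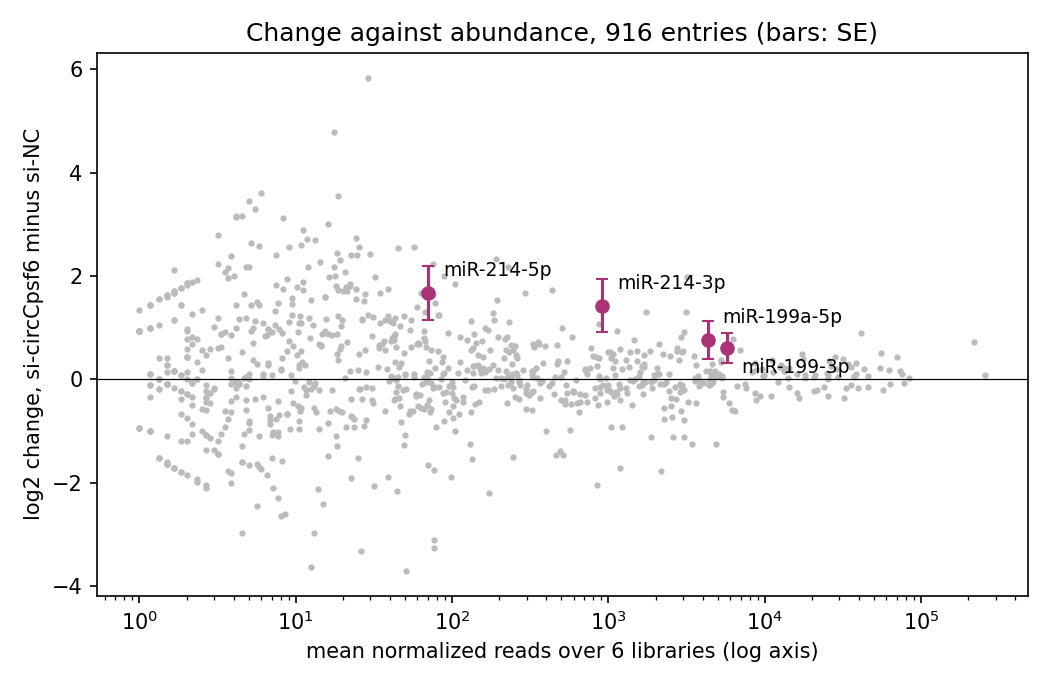
log2 change (si-circCpsf6 minus si-NC) against mean normalized reads over 6 libraries (log axis) for 916 entries (grey) and the 4 of miR-199 and miR-214 (magenta, bars SE). All 4 lie above 0, miR-214-5p at 1.67 where grey points spread widely and miR-199-3p at 0.60 where they spread less.

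The order of abundance was the same in all 6 libraries: miR-199-3p, miR-199a-5p, miR-214-3p, miR-214-5p. In si-NC the means of the first 2 were 4578 ± 1290 and 3300 ± 1362, with miR-199-3p the higher in each library. miR-214-3p and miR-214-5p lay well below both. By rank among the 1046 entries, miR-214-3p stood between 170 and 229 except in si-NC replicate 3, where it was 303. miR-199-3p stood between 71 and 81 except in that library, where it was 120. Together the 4 entries held 0.312%, 0.376% and 0.208% of the library total for si-NC against 0.395%, 0.491% and 0.480% for si-circCpsf6.

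Summed over all 4, the values were 9332, 10805 and 5244 for si-NC against 11166, 15819 and 13581 for si-circCpsf6. The groups did not overlap, with means of 8460 ± 2881 and 13522 ± 2327, or 1.60 times si-NC. The two-sided exact permutation p was 0.1, the smallest that 3 against 3 libraries can give. The miR-214 sum was 583 ± 316 and 1384 ± 171, or 2.38 times (exact permutation p = 0.1). The miR-199 sum was 7878 ± 2565 and 12138 ± 2160, or 1.54 times (exact permutation p = 0.2). Its groups overlapped, with si-NC replicate 2 at 9970 and si-circCpsf6 replicate 1 at 9933. Without si-NC replicate 3 the sums of all 4, miR-214 and miR-199 were 1.34, 1.82 and 1.30 times si-NC (exact permutation p = 0.2, 0.2 and 0.4, the smallest possible being 0.2).

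The balance between miR-214 and miR-199 was read as a ratio within each library, which scaling of whole libraries does not touch. miR-214-3p was listed at 12.2, 15.0 and 6.51 reads per 100 of miR-199-3p across si-NC libraries against 20.0, 19.6 and 16.9 with si-circCpsf6. Every si-circCpsf6 library lay above every si-NC library. The difference in mean log2 ratio was 0.82, or 1.77-fold, and 0.47, or 1.39-fold, without si-NC replicate 3 (two-sided exact permutation p = 0.1 and 0.2, the smallest possible in each case).

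Set against miR-199a-5p, miR-214-3p was at 19.6, 17.1 and 10.4 reads per 100 across si-NC libraries against 26.4, 22.1 and 24.2 with si-circCpsf6, again without overlap. The difference in mean log2 ratio was 0.67 (exact permutation p = 0.1), and 0.40 without si-NC replicate 3 (p = 0.2). Both ratios share the miR-214-3p values. In the miR-199 entries, reads from Dnm3os cannot be told apart from reads of Mir199a-1 or Mir199b.

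The arms of a hairpin are cut from one precursor, and usually one arm is kept and the other degraded. miR-214 was strongly on the 3p side, at 19.1, 20.97 and 7.44 reads of 3p per read of 5p for si-NC against 11.1, 16.8 and 9.14 for si-circCpsf6. The groups overlapped, with si-NC replicate 3 the lowest of all 6. The difference in log2 ratio was -0.24 (SE 0.52, limma across 151 hairpins, adjusted p = 0.998). Without si-NC replicate 3 it was -0.72 (SE 0.35, adjusted p = 0.424), and without si-NC replicate 2 its sign turned (0.031).

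For miR-199 the 3p value was the sequence shared by miR-199a and miR-199b, and the 5p value was that of miR-199a-5p. Their ratio pools several hairpins, so the arm preference of any single miR-199 hairpin cannot be read from it. These 2 entries stood at similar levels. The 3p to 5p ratio of miR-199 was 1.61, 1.14 and 1.60 for si-NC against 1.32, 1.13 and 1.43 for si-circCpsf6. The difference in log2 ratio was -0.15 (SE 0.31, limma adjusted p = 0.998). Leaving out si-NC replicate 3 gave -0.073, and leaving out si-NC replicate 2 gave -0.32. The ranges of the groups overlapped. Of 151 hairpins, pooled miR-199 included, 0 (0%) passed. An unadjusted p under 0.05 was seen in 4 (2.65%), with neither miR-214 nor pooled miR-199 among them. By mean log2 ratio over the 6 libraries, 19.2% of the hairpins leaned more to the 3p arm than miR-214 and 38.4% more than pooled miR-199.

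**Figure D4:**
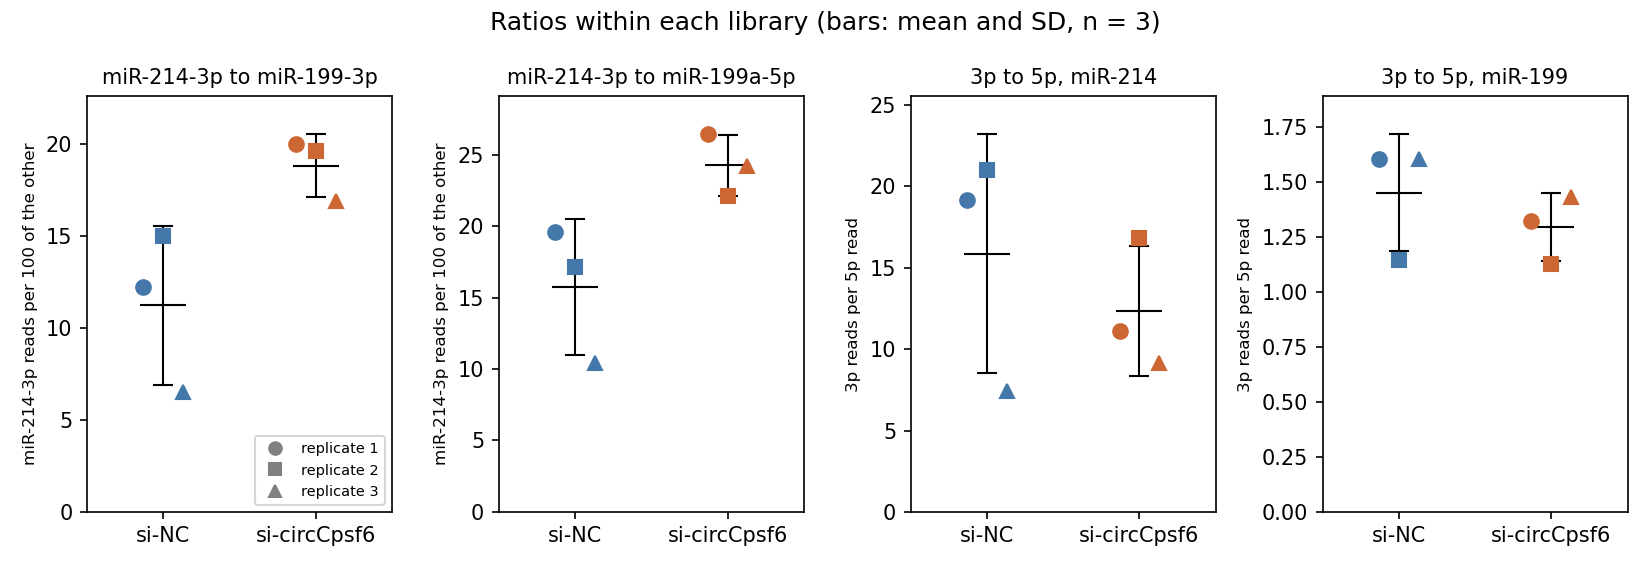
Ratios within each library (linear axes from 0) for si-NC (blue) and si-circCpsf6 (orange), with mean and SD: miR-214-3p per 100 reads of miR-199-3p and of miR-199a-5p, and 3p per 5p read for miR-214 and miR-199. The groups are apart in the 2 left panels and overlap in the 2 right panels. The miR-199 arm ratio pools the miR-199a and miR-199b hairpins.

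Across the 6 libraries the miR-199 and miR-214 entries followed each other, though the miR-199 reads cannot be assigned to Dnm3os. The Pearson correlation of log2(value + 1) with miR-214-3p was 0.97 for miR-199-3p, 0.96 for miR-199a-5p and 0.81 for miR-214-5p. These are descriptions of 6 libraries in 2 groups, with si-NC replicate 3 low in each, and without it the values were 0.86, 0.86 and 0.87. Among 343 other mouse entries whose mean was at least 100, the 5 most like miR-214-3p were miR-92b-3p (0.95), miR-375-3p (0.94), miR-3099-3p (0.94), miR-125a-3p (0.94) and miR-582-3p (0.94). The miR-199 arms were thus closer to it than any other entry compared. Of the 5 named, miR-3099-3p (0.91) and miR-92b-3p (0.88) were closer than the miR-199 arms without si-NC replicate 3. The remaining entries were not compared with miR-214-3p without that library. The 5 most like miR-199-3p were miR-125a-3p (0.99), miR-331-5p (0.93), miR-92b-3p (0.92), miR-3099-3p (0.91) and miR-132-5p (0.91). Without si-NC replicate 3 these values were 0.96, 0.72, 0.76, 0.76 and 0.83. The correlation of miR-199-3p was 0.97 with miR-214-3p, 0.95 with miR-199a-5p and 0.79 with miR-214-5p. Without that library these were 0.86, 0.82 and 0.74. In both cases miR-125a-3p was closer to miR-199-3p than the other entries of miR-199 and miR-214 were. Following miR-199-3p was therefore not particular to these entries.

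Of these, miR-3099-3p was listed at 195, 166 and 73 across si-NC libraries against 406, 609 and 317 with si-circCpsf6 (log2 change 1.68, limma adjusted p = 0.364). Its groups did not overlap, as for miR-214-3p. miR-125a-3p, a minor arm of the miR-125 family, was listed at 158, 149 and 100 across si-NC libraries against 152, 206 and 185 with si-circCpsf6 (log2 change 0.43, adjusted p = 0.904), so that its groups overlapped.

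Other miRNAs known from mesenchymal, smooth muscle and endothelial cells were taken from a list of 14 names, of which 13 had entries. Of the 27 entries 21 had a higher and 6 a lower log2 value in si-circCpsf6, 0 passed the limma test across all entries and 0 had an unadjusted p under 0.05. Their median log2 change was 0.17, against 0.086 over all 916 entries, of which 55.7% were higher, and it was 0.39 without si-NC replicate 3, when that of all entries was -0.041. Of the 25 entries of the neuronal and neuroendocrine list 15 were higher and 10 lower. Their median log2 change was 0.27, and 0.16 without si-NC replicate 3. Of these 25, 2 had an unadjusted p under 0.05 in limma, against 6.22% of all entries, and 0 passed. In 2 of the 27 mesenchymal entries every si-circCpsf6 library lay above every si-NC library, a share near the 6.77% of all entries. In 2 of the 25 neuronal and neuroendocrine entries the same was seen.

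The most abundant entry of the list, miR-143-3p of smooth muscle and fibroblasts, was listed at 89316, 62471 and 57213 across si-NC libraries against 77180, 64854 and 89458 with si-circCpsf6, with overlap of the groups. miR-21a-5p, a broadly expressed miRNA raised in fibrosis, was listed at 50917, 86558 and 43002 and at 67298, 113697 and 61401, also with overlap. miR-29a-3p, a repressor of collagen genes, was listed at 44778, 42453 and 48633 and at 71296, 58017 and 64901, without overlap (log2 change 0.51, limma adjusted p = 0.735). The list summed to between 297615 and 308986 for si-NC and between 356999 and 361632 for si-circCpsf6, and its part in the miR-199 and miR-214 values was not tested. It held 9.95%, 10.5% and 12.3% of the library total for si-NC against 12.6%, 11.2% and 12.8% for si-circCpsf6. si-NC replicate 3 had the highest share of this list among the si-NC libraries, with a list sum of 308986 against 297615 and 302420. Its library total was the lowest, at 2516481.

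With each library left out in turn, the log2 change of miR-214-3p ran from 0.81 to 1.81 and that of miR-214-5p from 1.51 to 1.80. It ran from 0.34 to 0.74 for miR-199-3p and from 0.42 to 1.05 for miR-199a-5p. The change stayed above 0 in each of these fits, and 0 of the 4 entries passed in any of them. For 3 of the 4 entries the lowest value was the one without si-NC replicate 3, and for miR-214-5p it was the one without si-circCpsf6 replicate 3.

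**Figure D5:**
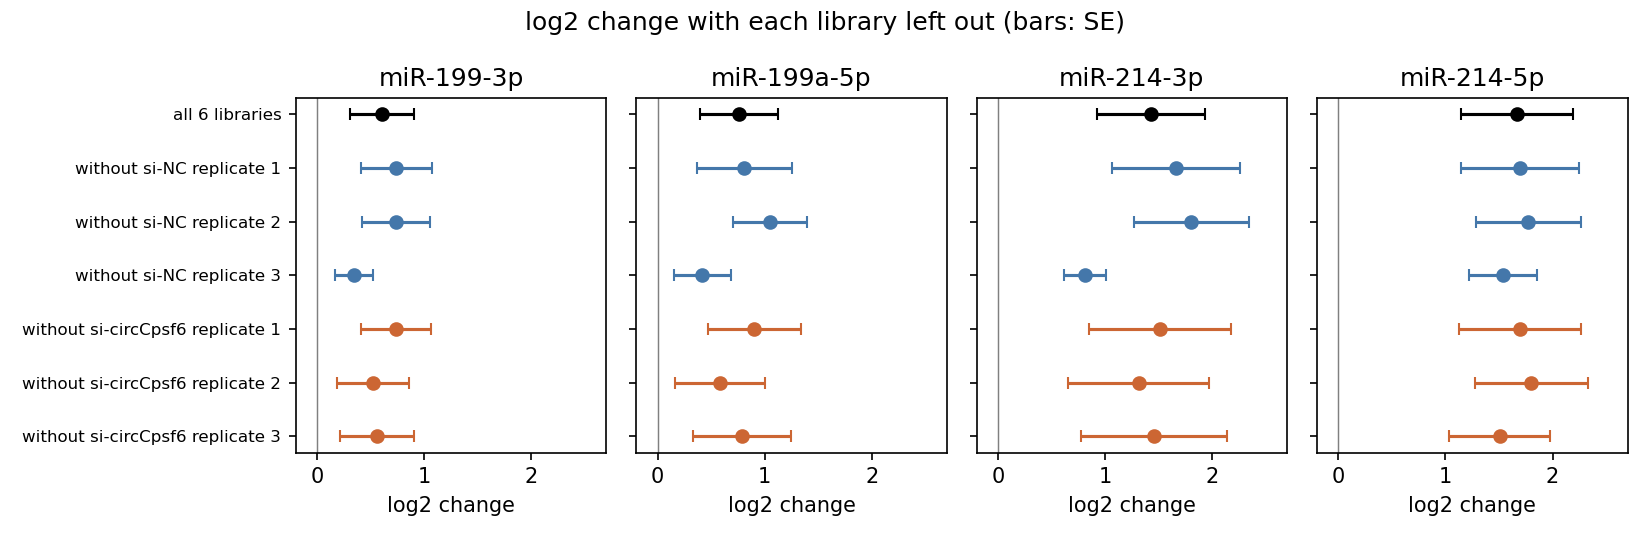
log2 change (si-circCpsf6 minus si-NC, bars SE) of the 4 entries with all 6 libraries (black) and with each si-NC (blue) or si-circCpsf6 (orange) library left out. Without si-NC replicate 3 miR-214-3p lies at 0.81 instead of 1.43, with a smaller SE, and miR-214-5p at 1.54.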

How the data were processed

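Small RNA was sequenced from 6 samples of N2A cells, grouped by title. The values used were the authors' deposited normalized read numbers, a score in whole numbers, normalized per the file headers. They are not raw read counts. The authors also deposited a log2 ratio of the group means and an unadjusted p-value per entry, per the file headers. The build was mm9 per the submitters' processing notes. For the aligner, the normalization and the miRNA release, the method was not given in the sources used here, so how reads were shared between identical arms is unknown.

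Rows that repeated another row's values were merged when 3 or more values were above 0 or the name apart from its suffix was the same (34 of 1080 merged). The 916 entries with a mean of 1 or more were fitted as log2(value + 1) on group alone, with limma 3.58.1 (R 4.3.3) and a variance trend. Adjusted p-values use the Benjamini-Hochberg method over all 916 entries, at 0.05. The log2 scale with a pseudocount understates changes of low entries. 3p to 5p ratios used the most abundant entry of each arm, for hairpins with both arms at a mean of 10 or more. The hairpins of miR-199a and miR-199b were pooled for this ratio. Single values per library were tested by exact permutation of libraries, two-sided. The fits were tested on simulated data. Sequences and positions came from RefSeq (GRCm38.p6) and GENCODE M21 by name, not from the authors' build. The members and lists were chosen with earlier results of these data known. All 4 entries are described in full, with the 3 most abundant of the mesenchymal list and the 5 entries most like miR-214-3p and miR-199-3p.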

Additional observations from a re-analysis of the deposited data

How the results depend on the processing

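Besides single libraries left out, the fits used pseudocounts of 0.1 and 5, other filters on low values, a robust variance, identical entries kept apart and values rescaled to a common total or by the median ratio. Under each of these 0 of the 4 entries passed, and each log2 change kept its sign. The adjusted p ran from 0.0989 to 0.698 for miR-214-5p, from 0.125 to 0.918 for miR-214-3p, from 0.437 to 0.918 for miR-199-3p and from 0.457 to 0.918 for miR-199a-5p. Over all 916 entries, leaving out si-NC replicate 3 took the entries that passed from 0 to 4, none of them of miR-199 or miR-214, and those with an unadjusted p under 0.05 from 57 to 132. The change in the miR-214 arm ratio ran from -0.72 to 0.031 with 1 library left out, and the cause was not tested. The arm ratio of miR-214 could not be computed with both arms at a mean of 100 or more, since miR-214-5p is below that.

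Same-numbered libraries of the 2 groups had correlations of deviations of 0.047, 0.48 and 0.40. Replicates 2 and 3 correlated best with their own number, against -0.40 and -0.44 across these 2 numbers. si-circCpsf6 replicate 1 was also highest with its own number, and si-NC replicate 1 was highest with si-circCpsf6 replicate 2 (0.18). The labels name no pairs, so the main fits used group alone. Whether the numbers mark pairs was not tested. With the replicate number as a block (replicate block), 0 of the 4 entries passed and the log2 changes were the same, 1.67 and 1.43 for the miR-214 arms, with adjusted p-values of 0.326 and 0.437. The low read numbers of miR-214-5p and the unknown depth limit what these libraries can show for it.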

Other observations

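Entries named after miR-199 of other species were low. A variant of bovine miR-199c, listed under 2 names with the same values, stood at 35, 36 and 0 for si-NC against 30, 23 and 41 for si-circCpsf6. A second variant of it was listed at 14, 4 and 0 against 9, 6 and 7. Both were at 0 in si-NC replicate 3 only. An entry named sha-mir-199a-p5 had no value above 0 with si-NC and stood at 4, 4 and 0 with si-circCpsf6. Their sequences were not analysed here, and these entries are in none of the sums or ratios given for miR-199.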
